A study of Rattus norvegicus with 10 samples.

Results

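Tcf21, Twist1, Twist2, Osr1, Sox9, Prrx1, Tbx18, Meox1, Zeb2 and Snai2 encode transcription factors that mark the mesenchymal lineages from which cardiac fibroblasts arise. These 10 genes were chosen by symbol, not by a cut on a measured value, but with earlier results of these data known. All 10 had a row among the 28522 symbols counted. RNA had been sequenced from primary rat cells isolated from hearts of rats 1 to 3 days old and separated on a Percoll density gradient into a cardiac fibroblast and a ventricular cardiomyocyte fraction. The fibroblast groups were passage 2 cardiac fibroblasts in serum-free medium with 10 µM phenylephrine (n = 2) and in serum-free medium alone (n = 2). The cardiomyocyte groups, with no passage stated, were in serum-free medium with 10 µM phenylephrine (n = 3) and in serum-free medium alone (n = 3). Phenylephrine, an agonist of the α1-adrenergic receptor, is a standard means of making cultured cardiomyocytes grow. The medium was changed 24 h after plating, and neither how long the cells were exposed nor whether replicates are separate isolations is given in the labels, so the p-values measure the spread between these libraries, which may be technical. Only the fibroblasts carry a passage number, so cell type and passage cannot be told apart.

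Cardiac fibroblasts descend mainly from the epicardium, the outer layer of the embryonic heart, whose cells lose epithelial contacts and migrate into the muscle. Tcf21, a basic helix-loop-helix (bHLH) factor, is required for that fate in the mouse, and Tbx18, a T-box factor, marks the epicardium itself. Twist1 and Twist2, paralogous bHLH factors, and the zinc-finger repressors Snai2 and Zeb2 are known for the epithelial-to-mesenchymal transition. Osr1 is an odd-skipped zinc-finger factor, Prrx1 and Meox1 are homeobox factors of embryonic mesenchyme, and Sox9, an HMG-box factor, directs cartilage formation and is present in heart valve mesenchyme.

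Libraries held between 18048944 and 22794744 counts, and 3 counts corresponded to between 0.128 and 0.166 CPM (counts scaled to a common library size), a limit that covers counting error only. Cell identity was checked by marker lists. All 10 of 10 cardiomyocyte markers were lower in fibroblasts in serum-free medium, with sums of 576 to 590 CPM in fibroblasts and 24000 to 26200 CPM in cardiomyocytes. Nearly all of the fibroblast sum was Tnnt2, at a mean of 558 CPM, and the next highest marker, Myh7, was at 6.76 CPM. Of 12 fibroblast markers, 9 were higher and 2 lower in fibroblasts, and their sums were 39700 to 46900 CPM in fibroblasts and 7230 to 12600 CPM in cardiomyocytes. All 14 of 14 leukocyte markers were lower in fibroblasts, with sums of 23.9 to 39.7 CPM in fibroblasts and 213 to 250 CPM in cardiomyocytes. The part of fibroblast-marker, leukocyte, epicardial or endothelial RNA in member levels of the cardiomyocyte libraries was not tested. In bulk RNA, fewer cells of a type and less RNA per cell cannot be told apart. Cardiomyocyte replicate 1 with phenylephrine and cardiomyocyte replicate 2 in serum-free medium stood apart. They differed from their group mates by a chi-square per degree of freedom of 19.4 and 24, and of 23.2 and 23.9, against 3.11 and 4.4 between the remaining libraries of those groups. Fibroblast marker sums were 16000 CPM in the first and 12600 CPM in the second, against 9740 to 9750 CPM and 7230 to 7890 CPM in their mates. The fibroblast libraries in serum-free medium also differed from each other, by 15.6, where those with phenylephrine differed by 2.51.

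CPM values use library sizes scaled by edgeR's TMM factors (trimmed mean of M values). They are compared between libraries of 1 gene, not between genes, because transcript length was not taken into account. All 10 members passed the filter on low counts, which left 13869 genes. Differences are log2 fold changes ± SE from edgeR's quasi-likelihood test over all 10 libraries, and calls were made below an adjusted p of 0.05, with Benjamini-Hochberg adjustment over all 13869 genes.

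In serum-free medium, 9 of the 10 factors were higher in fibroblasts than in cardiomyocytes, and no estimate was negative. Fibroblasts exceeded cardiomyocytes most for Osr1, Sox9 and Tcf21, by 10.7, 8.11 and 3.76 times. Meox1 was not called. Of all genes tested, 31.7% were called higher and 34.5% lower in fibroblasts, and the median log2 difference was 1.21 over the members and -0.02 over all genes. All 10 members were above the 3-count limit in every library of both cell types.

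Osr1 was at 43.1 and 64 CPM in fibroblasts, against 5.06, 4.23 and 5.61 CPM in cardiomyocytes, a log2 difference of 3.42 ± 0.163 (edgeR adjusted p = 1.1e-08). The lowest fibroblast library was far above the highest cardiomyocyte library, although the fibroblast pair itself differed. Sox9 was at 108 and 111 CPM in fibroblasts and at 10.8, 17.9 and 11.9 CPM in cardiomyocytes, a log2 difference of 3.02 ± 0.158 (edgeR adjusted p = 7.33e-08). The high cardiomyocyte value for Sox9 was that of replicate 2, the library that stood apart. Tcf21 was at 61 and 86.9 CPM in fibroblasts and at 18.1, 22 and 19 CPM in cardiomyocytes, a log2 difference of 1.91 ± 0.173 (edgeR adjusted p = 6.72e-06). Cardiomyocyte levels were 9.34% of fibroblast levels for Osr1, 12.3% for Sox9 and 26.6% for Tcf21.

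Zeb2, Prrx1 and Snai2 formed a middle group. Zeb2, which represses E-cadherin, averaged 156 ± 5.48 CPM in fibroblasts (SD, n = 2) and 63.7 ± 3.35 CPM in cardiomyocytes (SD, n = 3), a log2 difference of 1.29 ± 0.0833. Prrx1 averaged 42.8 ± 10.1 CPM in fibroblasts and 18.4 ± 0.576 CPM in cardiomyocytes, a log2 difference of 1.22 ± 0.137. Snai2, the Slug repressor, averaged 14.4 ± 0.952 CPM in fibroblasts and 6.27 ± 1.39 CPM in cardiomyocytes, a log2 difference of 1.21 ± 0.263. These log2 differences were within 1 SE of one another, so their order is not resolved. The edgeR adjusted p-values were 9.28e-08 for Zeb2, 1.22e-05 for Prrx1 and 0.00237 for Snai2. In RefSeq, Zeb2 and Prrx1 each overlap long noncoding RNA genes, and the library kit named in the labels does not mark strand, so their counts may include reads of those transcripts.

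Among the factors called, Twist2, Tbx18 and Twist1 had the smallest log2 differences. Twist2 was at 3.03 and 5.1 CPM in fibroblasts, from 60 and 98 counts, and at 2.41, 1.71 and 2.08 CPM in cardiomyocytes, a log2 difference of 0.97 ± 0.254 (edgeR adjusted p = 0.00539). Its cardiomyocyte libraries were all below its fibroblast libraries. Without fibroblast replicate 2 the Twist2 difference was 0.55 (adjusted p = 0.117, the highest over the alternatives, whose lowest was 0.00148) and no longer called. Tbx18 was at 38 and 45.1 CPM in fibroblasts and at 24.2, 26 and 24.3 CPM in cardiomyocytes, a log2 difference of 0.74 ± 0.155 (edgeR adjusted p = 0.00162). Twist1 was at 12.6 and 11.3 CPM in fibroblasts and at 8.68, 10 and 8.08 CPM in cardiomyocytes, a log2 difference of 0.43 ± 0.141 (edgeR adjusted p = 0.019). That call was lost without either of 2 libraries. Without fibroblast replicate 1 the Twist1 difference was 0.34 (adjusted p = 0.13), and without cardiomyocyte replicate 3 it was 0.36 (adjusted p = 0.0675), in a range of 0.000754 to 0.13 over the alternatives. The paralogs Twist1 and Twist2 were counted separately by symbol, and reads common to both could be split between them.

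Meox1 was at 2.07 and 2.24 CPM in fibroblasts, from 41 and 43 counts, and at 1.35, 3.05 and 1.53 CPM in cardiomyocytes, from 28, 57 and 36 counts. The groups overlapped because of cardiomyocyte replicate 2. The log2 difference was 0.15 ± 0.301 (edgeR adjusted p = 0.682), and without that library it was 0.58 (adjusted p = 0.0311), with adjusted p-values from 0.0311 to 0.972 over the alternatives.

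**Figure D1:**
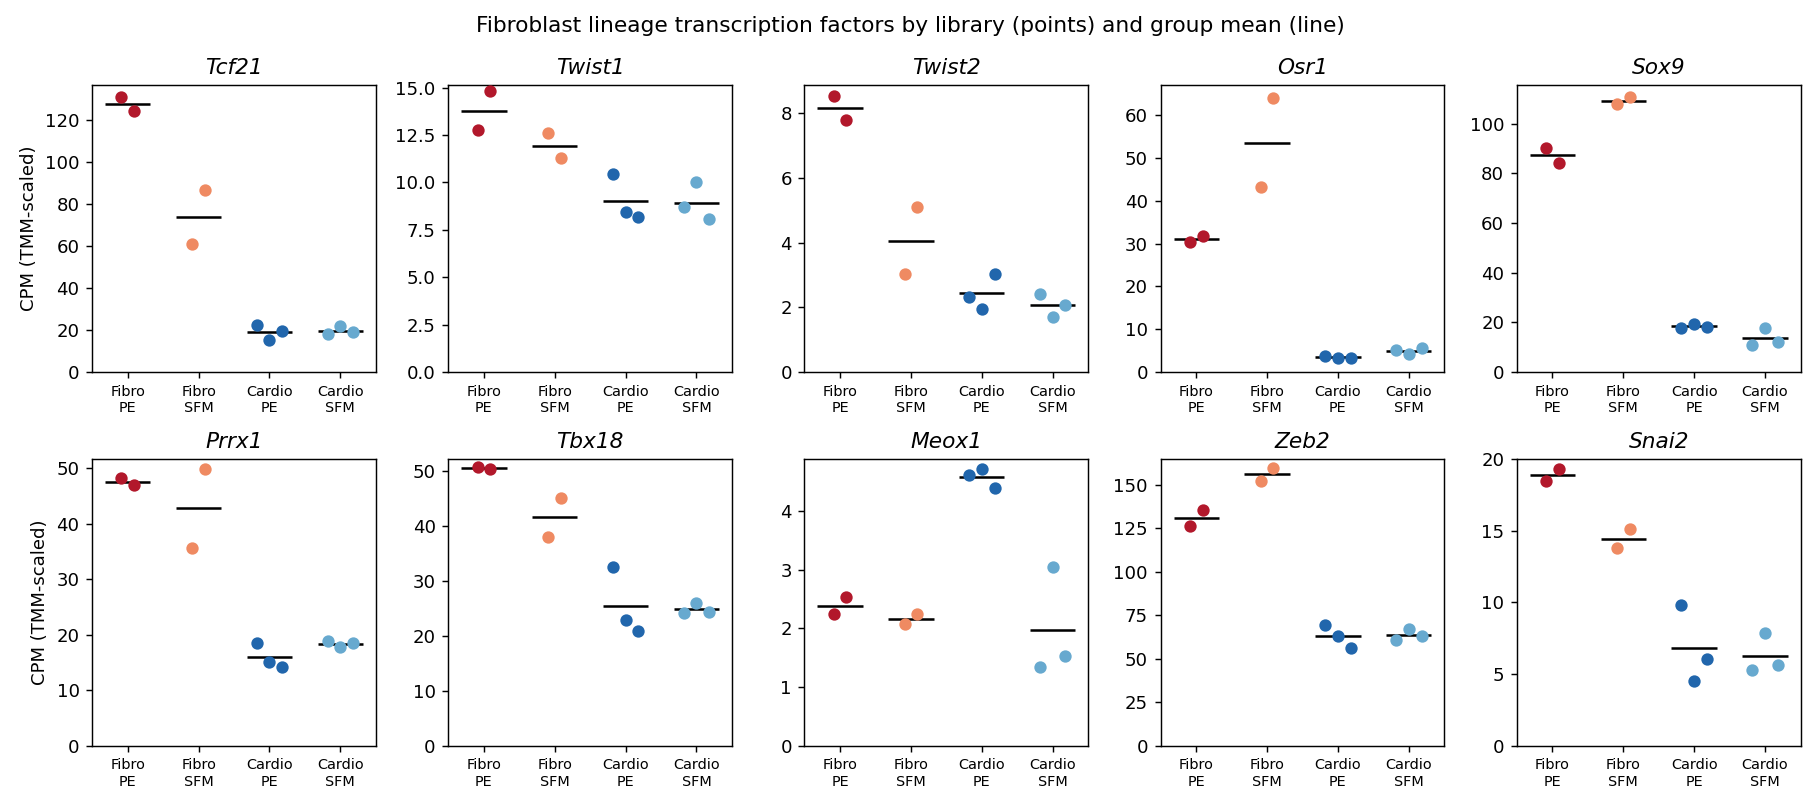
Level of each of the 10 transcription factors in every library, in CPM. Fibroblasts are left of cardiomyocytes, and phenylephrine is left of serum-free medium within each cell type. Each point is 1 library. Osr1, Sox9 and Tcf21 stand highest in fibroblasts relative to cardiomyocytes, and Meox1 stands highest in cardiomyocytes with phenylephrine.

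With phenylephrine in the medium of both, the cell types differed in all 10 factors: 9 were higher in fibroblasts and 1, Meox1, was lower. Of all genes tested, 31.2% were called higher and 33.7% lower. The member median was 1.53 on the log2 scale, against -0.02 over all genes. The libraries of this comparison are not those of the serum-free comparison, but each cell-type comparison shares libraries with both phenylephrine comparisons that follow.

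Osr1 was at 30.4 and 31.7 CPM in fibroblasts with phenylephrine and at 3.76, 3.31 and 3.33 CPM in cardiomyocytes with phenylephrine, a log2 difference of 3.16 ± 0.176 (edgeR adjusted p = 4.15e-08). Tcf21 was at 131 and 124 CPM in fibroblasts and at 22.4, 15.2 and 19.8 CPM in cardiomyocytes, a log2 difference of 2.74 ± 0.173 (edgeR adjusted p = 5.66e-07), or 6.68 times. Sox9 was at 90 and 84.3 CPM in fibroblasts and at 17.6, 19.5 and 17.9 CPM in cardiomyocytes, a log2 difference of 2.25 ± 0.155 (edgeR adjusted p = 6.41e-07), or 4.75 times. In these 3 factors the cell types were separated by a wide margin. Twist2 was 3.32 times, Prrx1 2.99 times, Snai2 2.77 times, Zeb2 2.08 times, Tbx18 1.99 times and Twist1 1.53 times as high in fibroblasts as in cardiomyocytes, with edgeR adjusted p-values between 5.86e-07 for Zeb2 and 0.00238 for Twist1. For Meox1 the order was turned. Fibroblasts had 2.24 and 2.54 CPM and cardiomyocytes 4.61, 4.72 and 4.39 CPM, a log2 difference of -0.94 ± 0.277 (edgeR adjusted p = 0.0111). The groups did not overlap, but without fibroblast replicate 1 with phenylephrine the difference was -0.85 (adjusted p = 0.0839), in a range of 0.000288 to 0.0839 over the alternatives.

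**Figure D2:**
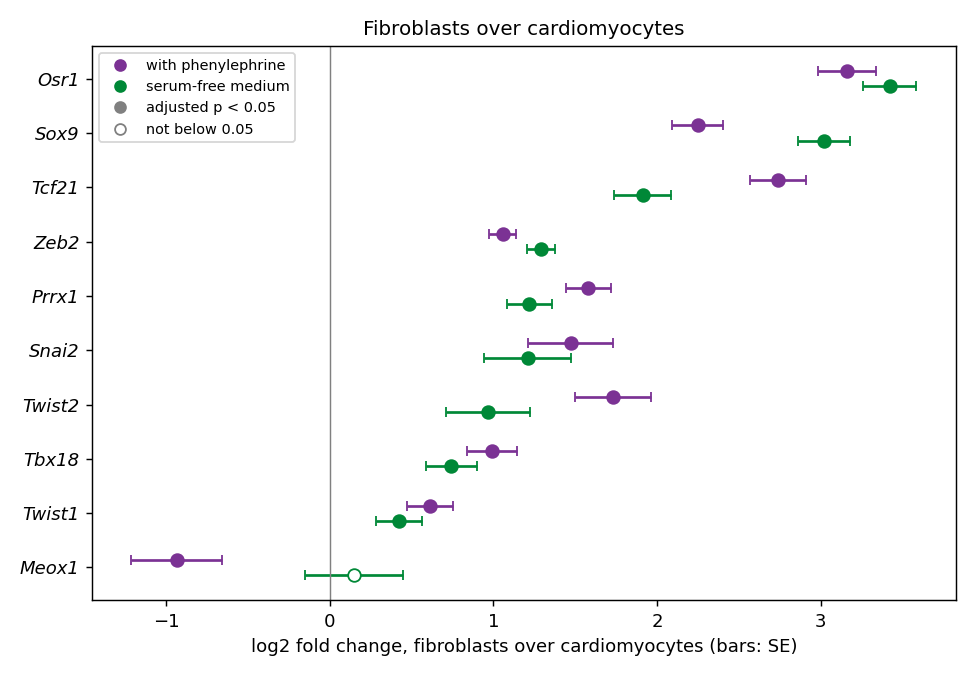
Log2 fold change, fibroblasts over cardiomyocytes, of each factor with phenylephrine and in serum-free medium, with error bars of 1 SE from the edgeR fit. All factors except Meox1 lie above 0 in both media, and Meox1 is at -0.94 with phenylephrine and 0.15 in serum-free medium.

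Phenylephrine changed 3 of the 10 factors in fibroblasts. Tcf21 and Twist2, both bHLH factors, rose by 1.73 and 2.01 times, and Osr1 was 1.72 times lower. Of all genes tested, 2.06% rose and 1.77% fell, the median log2 change was 0.18 over the members and 0.00 over all genes, and 7 members did not pass the test. Windows at an annotated start of these 3 genes are shown as sequence because these genes are the members that changed. They were read from RefSeq on the GRCr8 build, not the Rnor_6.0 build on which the reads were counted, each from 250 bases before to 50 bases after an annotated transcript start on the plus strand. Capitals mark matches to the motifs described next. The Tcf21 window is chr1:24520249-24520548, the Twist2 window is chr9:99821992-99822291, and the Osr1 window, at a start 8963 bases inside the gene's outermost annotated start, is chr6:38097401-38097700.
Tcf21: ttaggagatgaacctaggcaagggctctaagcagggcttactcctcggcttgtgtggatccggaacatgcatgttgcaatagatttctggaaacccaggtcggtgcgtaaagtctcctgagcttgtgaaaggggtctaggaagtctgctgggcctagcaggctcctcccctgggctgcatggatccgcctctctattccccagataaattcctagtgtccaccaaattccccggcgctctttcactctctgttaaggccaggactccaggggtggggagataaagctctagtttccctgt
Twist2: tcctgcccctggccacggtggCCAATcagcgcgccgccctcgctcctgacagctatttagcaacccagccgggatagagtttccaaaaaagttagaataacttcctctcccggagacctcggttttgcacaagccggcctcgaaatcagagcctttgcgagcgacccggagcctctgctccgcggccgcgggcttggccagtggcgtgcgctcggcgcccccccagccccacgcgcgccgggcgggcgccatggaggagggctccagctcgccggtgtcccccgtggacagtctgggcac
Osr1: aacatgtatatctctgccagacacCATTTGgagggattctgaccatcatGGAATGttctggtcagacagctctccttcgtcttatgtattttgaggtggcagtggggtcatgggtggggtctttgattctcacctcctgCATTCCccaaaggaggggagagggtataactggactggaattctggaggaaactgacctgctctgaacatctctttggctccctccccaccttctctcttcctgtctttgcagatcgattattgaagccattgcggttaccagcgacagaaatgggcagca

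Windows of this kind were in the table for 7 of the 10 members. These motifs were searched on both strands: the E-box CANNTG bound by bHLH factors, the CCAAT box, the AP-1 site TGANTCA, the cAMP response element TGACGTCA and the TEAD site GGAATG. The E-box was present in 3 of 7 member windows and in 72.1% of 33469 windows of all genes, and among the sequences shown it was found once, in Osr1. The CCAAT box was present in 4 of 7, Twist2 among them, and in 37.5% of all. The TEAD site was present in 1 of 7, Osr1, where it matched on both strands, and in 14.2% of all. AP-1 and cAMP response elements were in none of the 7, and in 7.33% and 1.83% of all windows. The Tcf21 window held none of these motifs. These matches describe letters only. Whether transcription in these cells begins at the annotated starts was not tested.

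Tcf21 was at 131 and 124 CPM in fibroblasts with phenylephrine and at 61 and 86.9 CPM in fibroblasts in serum-free medium, a log2 change of 0.79 ± 0.182 (edgeR adjusted p = 0.0472). Twist2 was at 8.54 and 7.79 CPM with phenylephrine, from 164 and 141 counts, and at 3.03 and 5.1 CPM in serum-free medium, from 60 and 98 counts, a log2 change of 1.01 ± 0.248 (edgeR adjusted p = 0.0472). Osr1 was at 30.4 and 31.7 CPM with phenylephrine and at 43.1 and 64 CPM in serum-free medium, a log2 change of -0.79 ± 0.161 (edgeR adjusted p = 0.0222). In none of the 3 genes did the groups overlap. Among the members not called they overlapped only in Prrx1, so lack of overlap does not set the 3 apart. Overlap was not counted over all genes. In each of the 3 genes the serum-free pair was the more scattered. Serum-free replicate 1 was the lowest library for all 3 of these genes within that pair, so that it lay farther from the phenylephrine libraries in Tcf21 and Twist2 and nearer in Osr1. The authors' deposited table gives log2 changes of 0.78 for Tcf21, 1.00 for Twist2 and -0.79 for Osr1, with adjusted p-values of 0.0034, 0.02804 and 0.002733.

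These calls lay near the threshold. Without serum-free fibroblast replicate 1, the Tcf21 change was 0.56 (adjusted p = 0.264) and the Twist2 change was 0.68 (adjusted p = 0.38). Without serum-free fibroblast replicate 2, the Osr1 change was -0.47 (adjusted p = 0.0996). All 3 calls were also lost without either phenylephrine library. The Tcf21 call was lost as well with relative log expression factors (adjusted p = 0.051), without a filter (adjusted p = 0.0973) and with the compared groups fitted alone (adjusted p = 0.0506), and the Osr1 call with the compared groups alone (adjusted p = 0.0975). Over the alternatives the adjusted p ran from 0.00224 to 0.268 for Tcf21, from 0.0165 to 0.38 for Twist2 and from 0.00185 to 0.203 for Osr1. Fibroblast marker sums were also higher with phenylephrine, as Tcf21 and Twist2 were and Osr1 was not. They were 54500 to 56600 CPM with phenylephrine and 39700 to 46900 CPM in serum-free medium. Most of them was Col1a1, at means of 35000 and 30400 CPM, and Col3a1, at 17200 and 10300 CPM. Of the 12 markers, 0 were called by edgeR, 4 had an unadjusted p below 0.05, and 2 were called by DESeq2 and 2 by limma-voom. Epicardial marker sums were 230 to 238 CPM with phenylephrine and 130 to 138 CPM in serum-free medium. Aldh1a2 was the largest part of these sums, at means of 155 and 78.8 CPM. Of the 12 epicardial markers 4 were called higher, against 2.06% of all genes, and Muc16 was at 0 in the serum-free libraries. Of 12 endothelial markers 1 was called higher, Tek, and 1 lower, Flt1. Among 7 Schwann cell markers 1 was called higher, Mbp. The part of these differences in the 3 changes was not tested.

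The ratio of 2 counts within a library does not depend on scaling. It was computed after the values were seen, and carries no test, since 2 libraries against 2 cannot pass an exact test. Tcf21 to Osr1 was 4.32 and 3.93 in fibroblasts with phenylephrine and 1.42 and 1.36 in fibroblasts in serum-free medium. The serum-free pair was thus nearly alike in this ratio, although its libraries differed in the level of both genes. In cardiomyocytes it was 5.94, 4.59 and 5.94 with phenylephrine and 3.57, 5.2 and 3.38 in serum-free medium. Twist2 to Twist1 was 0.669 and 0.526 in fibroblasts with phenylephrine and 0.241 and 0.452 in serum-free medium.

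**Figure D3:**
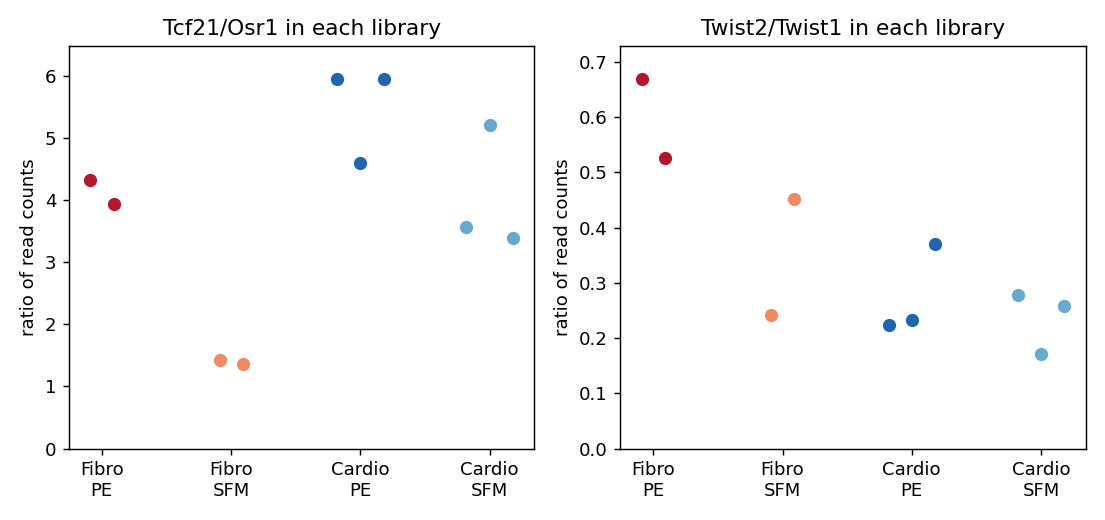
Ratio of counts within each library, Tcf21 to Osr1 and Twist2 to Twist1, on axes starting at 0, with phenylephrine left of serum-free medium. Each point is 1 library. The Tcf21 to Osr1 ratio in fibroblasts lies between 3.93 and 4.32 with phenylephrine and between 1.36 and 1.42 without.

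The other 7 factors were not called in fibroblasts in the fit to all 10 libraries. Sox9 was at 90 and 84.3 CPM with phenylephrine and 108 and 111 CPM in serum-free medium, a log2 change of -0.33 ± 0.161 (edgeR adjusted p = 0.328). Zeb2 was at 126 and 136 CPM with phenylephrine and 152 and 160 CPM in serum-free medium, a log2 change of -0.25 ± 0.0916 (edgeR adjusted p = 0.171). Snai2 was at 18.4 and 19.3 CPM with phenylephrine and 13.8 and 15.1 CPM in serum-free medium, a log2 change of 0.39 ± 0.274 (edgeR adjusted p = 0.514). The libraries of these 3 genes did not overlap between the groups, without passing the test. The same held for Tbx18, Twist1 and Meox1, and only Prrx1 overlapped. How many of all genes did not overlap was not counted, so this is not read as a result about the members. With the compared groups fitted alone, Sox9 (-0.32, adjusted p = 0.0137) and Snai2 (0.39, adjusted p = 0.0344) were called, in ranges of 0.0137 to 0.676 and 0.0344 to 0.846 over the alternatives. Log2 changes were 0.28 for Tbx18, 0.21 for Twist1, 0.15 for Prrx1 and 0.15 for Meox1, with edgeR adjusted p-values between 0.423 and 0.869.

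In cardiomyocytes, phenylephrine changed 1 factor, Meox1, which rose 2.35 times. Of all genes tested 1.79% rose and 1.84% fell, and the member median was 0.03 on the log2 scale, against 0.00 over all genes. Meox1 was at 4.61, 4.72 and 4.39 CPM with phenylephrine, from 87, 87 and 91 counts, and at 1.35, 3.05 and 1.53 CPM in serum-free medium, a log2 change of 1.23 ± 0.247 (edgeR adjusted p = 0.0271). The groups did not overlap, and the highest serum-free value was that of replicate 2, which stood apart. Without it the change was 1.66 (adjusted p = 0.000148), and without both libraries that stood apart it was 1.65 (adjusted p = 8.67e-06). Leaving out serum-free replicate 1 or 3 gave 1.02 (adjusted p = 0.122) or 1.07 (adjusted p = 0.135), and the call was also lost without phenylephrine replicate 2 (adjusted p = 0.11) or 3 (adjusted p = 0.0919) and with the compared groups fitted alone (adjusted p = 0.0894). Over the alternatives the adjusted p ran from 8.67e-06 to 0.135. The authors' deposited table gives 1.23 with an adjusted p of 0.002053. Markers of other cell types moved in the same comparison. Leukocyte marker sums were 155 to 198 CPM with phenylephrine and 213 to 250 CPM in serum-free medium, with 3 of 14 called lower, Laptm5, Fcer1g and Ptprc, and no marker at 0. Of 12 endothelial markers 1 was called higher, Kdr, by 0.78 (edgeR adjusted p = 0.0147), and of 12 mural cell markers 1 was called higher, Cspg4, and 1 lower, Abcc9. Endothelial sums were 335 to 388 CPM with phenylephrine and 266 to 351 CPM in serum-free medium. Eng, which was not called, was the largest part of these sums, at means of 227 and 178 CPM. Mural sums were 7260 to 7820 CPM with phenylephrine and 4820 to 7130 CPM in serum-free medium. The part of these differences in the Meox1 change was not tested.

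Sox9 and Osr1 came nearest among the rest. Sox9 was at 17.6, 19.5 and 17.9 CPM with phenylephrine and at 10.8, 17.9 and 11.9 CPM in serum-free medium, a log2 change of 0.45 ± 0.154 (edgeR adjusted p = 0.132). Without the serum-free library that stood apart the Sox9 change was 0.69 (adjusted p = 0.000282), and without both such libraries 0.72 (adjusted p = 1.16e-05), in a range of 1.16e-05 to 0.396 over the alternatives. Osr1 was at 3.76, 3.31 and 3.33 CPM with phenylephrine and at 5.06, 4.23 and 5.61 CPM in serum-free medium, a log2 change of -0.53 ± 0.19 (edgeR adjusted p = 0.14), with no overlap between the groups. Tcf21, which rose in fibroblasts, was at 22.4, 15.2 and 19.8 CPM with phenylephrine and 18.1, 22 and 19 CPM in serum-free medium, a log2 change of -0.04 ± 0.168 (edgeR adjusted p = 0.923). Log2 changes were 0.24 for Twist2, 0.12 for Snai2, 0.04 for Tbx18, 0.02 for Twist1, -0.02 for Zeb2 and -0.21 for Prrx1, none of them called.

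Most members were highest of their group in the libraries that stood apart, but how many of all genes were highest there was not counted. Whether these counts are particular to the members is therefore not known. Of the 10 factors, 7 were highest in replicate 1 of the phenylephrine group, namely Tcf21, Twist1, Osr1, Prrx1, Tbx18, Zeb2 and Snai2. In serum-free medium 7 were highest in replicate 2, namely Tcf21, Twist1, Sox9, Tbx18, Meox1, Zeb2 and Snai2. Snai2 was at 9.81 CPM in the first, against 4.51 and 6.08 CPM in its mates, and at 7.86 CPM in the second, against 5.3 and 5.65 CPM. The fibroblast marker sums given above were highest in the same libraries. The part of fibroblast RNA in these values was not tested.

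**Figure D4:**
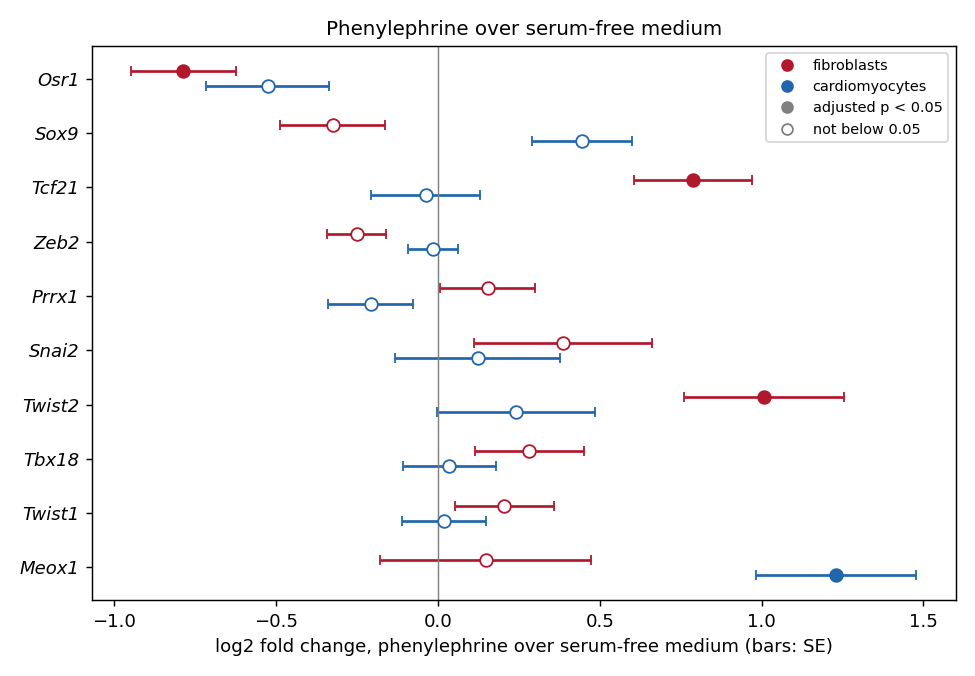
Log2 fold change, phenylephrine over serum-free medium, of each factor in fibroblasts and in cardiomyocytes, with error bars of 1 SE from the edgeR fit. Tcf21 at 0.79, Twist2 at 1.01 and Osr1 at -0.79 were called in fibroblasts, and Meox1 at 1.23 was called in cardiomyocytes.

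Whether phenylephrine acted differently in the cell types was tested as the difference of the 2 changes. None of the 10 factors passed by edgeR's quasi-likelihood test, of 3.25% of all genes in either direction. At an unadjusted p below 0.05 there were 3, Tcf21, Sox9 and Meox1. The difference, fibroblast minus cardiomyocyte change, was 0.83 ± 0.247 for Tcf21 (edgeR adjusted p = 0.11), -0.77 ± 0.223 for Sox9 (edgeR adjusted p = 0.0972) and -1.08 ± 0.41 for Meox1 (edgeR adjusted p = 0.178). DESeq2 called Tcf21 (0.82, adjusted p = 0.0289) and Sox9 (-0.78, adjusted p = 0.0275), and limma-voom called Sox9 (-0.81, adjusted p = 0.0471). Without both libraries that stood apart, Sox9 (-1.04, adjusted p = 3.13e-06), Meox1 (-1.51, adjusted p = 0.00169) and Tbx18 (0.43, adjusted p = 0.02) were called. Without the serum-free cardiomyocyte library of these alone, Sox9 (-1.01, adjusted p = 0.000197) and Meox1 (-1.51, adjusted p = 0.0056) were called, and without serum-free fibroblast replicate 2 Tcf21 was (1.11, adjusted p = 0.0322). Adjusted p-values over the alternatives ran from 0.0289 to 0.322 for Tcf21, from 3.13e-06 to 0.28 for Sox9, from 0.00169 to 0.456 for Meox1 and from 0.02 to 0.876 for Tbx18. The difference was 0.77 ± 0.349 for Twist2 and -0.26 ± 0.251 for Osr1 (edgeR adjusted p = 0.263 and 0.621), so a response of Twist2 or Osr1 particular to fibroblasts was not shown.

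Paralogs of the members did not all have the members' cell-type pattern. Of 16 tested, 8 were higher and 5 lower in fibroblasts in serum-free medium, against 31.7% and 34.5% of all genes. Snai1, the Snail repressor, differed by 0.64 (edgeR adjusted p = 0.0209), Zeb1 by 0.28 (adjusted p = 0.0011), Prrx2 by 1.11 (adjusted p = 0.00961) and Osr2 by 1.06 (adjusted p = 0.0244). Meox2 was lower in fibroblasts, at -1.23 (edgeR adjusted p = 0.0077), where Meox1 was not called. Under phenylephrine in fibroblasts, 1 of the 16 paralogs, Sox6, fell, against 1.77% of all genes. Sox6 averaged 1.98 ± 0.00674 CPM with phenylephrine and 5.61 ± 0.791 CPM in serum-free medium (SD, n = 2 each). Its log2 change was -1.50 ± 0.186 (edgeR adjusted p = 0.00138). Sox6 also passed the test of the difference between cell types, at -1.49 ± 0.23 (edgeR adjusted p = 0.00751).

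The bHLH members bind DNA as dimers with E proteins, and Id proteins sequester those partners. Of 7 genes of this group tested, 4 were higher and 1 lower in fibroblasts in serum-free medium, against 31.7% and 34.5% of all genes. Tcf3, an E protein, was higher by 0.95 (edgeR adjusted p = 9.46e-06), and Id1 was lower, at -1.53. In fibroblasts 2 of the 7 rose with phenylephrine, against 2.06% of all genes. Id1 averaged 24.6 ± 5.19 CPM with phenylephrine and 9.96 ± 1.00 CPM in serum-free medium, a log2 change of 1.31 ± 0.209 (edgeR adjusted p = 0.00892). Id2 averaged 55.7 ± 1.44 CPM with phenylephrine and 34.8 ± 3.99 CPM in serum-free medium, a log2 change of 0.68 ± 0.136 (edgeR adjusted p = 0.0193). In cardiomyocytes 1 of the 7 rose, Id4, by 0.75 (edgeR adjusted p = 0.0414), against 1.79% of all genes.

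Genes that the members are known to control were mixed. Of 12 epithelial genes tested, which Snai2, Zeb2 and the Twist factors repress in other systems, 7 were lower and 1 higher in fibroblasts in serum-free medium. In that comparison 34.5% of all genes were lower and 31.7% higher. Dsp, the desmosomal protein desmoplakin that cardiomyocytes also need, averaged 6.31 ± 0.276 CPM in fibroblasts and 514 ± 43.6 CPM in cardiomyocytes, and Krt18, an epithelial keratin, averaged 0.178 ± 0.105 CPM in fibroblasts and 64.3 ± 26.2 CPM in cardiomyocytes. Cdh1, E-cadherin, was the member of the list that was higher in fibroblasts, by 1.20 (edgeR adjusted p = 0.0257). It averaged 0.591 ± 0.121 CPM in fibroblasts and 0.253 ± 0.0539 CPM in cardiomyocytes. Of 12 epicardial markers, 8 were also lower and 2 higher in fibroblasts in serum-free medium. The part of RNA from epicardial or other cells in the levels of these epithelial genes was not tested. Of 17 mesenchymal genes, 15 were higher and 2 lower in fibroblasts, Cdh2, N-cadherin, being lower at -1.85 ± 0.0825. With phenylephrine in fibroblasts, 2 of the 17 fell, against 1.77% of all genes. Tnc, tenascin C, averaged 294 ± 14.9 CPM with phenylephrine and 659 ± 134 CPM in serum-free medium, and Fn1, fibronectin, averaged 11700 ± 187 CPM with phenylephrine and 16800 ± 722 CPM in serum-free medium. Their log2 changes were -1.17 ± 0.177 (edgeR adjusted p = 0.0079) and -0.53 ± 0.123 (edgeR adjusted p = 0.0386).

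Sox9 is the activator of cartilage matrix genes. Of 11 such genes tested, 6 were higher and 3 lower in fibroblasts in serum-free medium, against 31.7% and 34.5% of all genes. Col11a1, a fibrillar collagen chain, averaged 1070 ± 67.9 CPM in fibroblasts and 17.1 ± 7.53 CPM in cardiomyocytes, a log2 difference of 5.98 ± 0.46 (edgeR adjusted p = 6.28e-06). Matn4, a matrilin, averaged 22.8 ± 3.23 CPM in fibroblasts and 2.49 ± 0.335 CPM in cardiomyocytes, a log2 difference of 3.20 ± 0.22. The main cartilage matrix genes went the other way, at low levels: Col2a1 differed by -2.58 and Acan by -1.75, with fibroblast means of 0.0774 ± 0.0379 and 0.334 ± 0.0432 CPM and cardiomyocyte means of 0.493 ± 0.0526 and 1.16 ± 0.573 CPM. With phenylephrine in cardiomyocytes 1 of the 11 rose, Matn4, by 1.18 (edgeR adjusted p = 0.0266), against 1.79% of all genes. In fibroblasts edgeR called 0 of the 11, with 1 at an unadjusted p below 0.05, and DESeq2 and limma-voom each called 0.

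Genes whose profile over the 10 libraries was nearest to each member were found by the root mean square difference of centred log2 CPM. Since these same libraries chose them, their changes are given as a description and are alike by choice. Igf1, the growth factor, and Gpc3, a glypican, were nearest to Tcf21, at 0.149 and 0.156 log2 units. The log2 difference of Gpc3 with phenylephrine was 0.70 ± 0.104 in fibroblasts and -0.04 in cardiomyocytes, beside 0.79 and -0.04 for Tcf21. Abca8a and Svep1, a matrix protein, were nearest to Osr1, at 0.216 and 0.236, and the log2 difference of Svep1 with phenylephrine in fibroblasts was -0.74 ± 0.133. Srpx and Cav2 were nearest to Sox9, at 0.159 and 0.164. Ecm2 and Il17b were nearest to Twist2, at 0.206 and 0.226, and Oacyl and Id4 to Meox1, at 0.222 and 0.24, but Ecm2, Il17b and Oacyl had mean levels below 1 CPM. Asph and Tfdp1 were nearest to Twist1, Npdc1 and Rftn2 to Prrx1, Colec12 and Plcd1 to Tbx18, Pcdha13 and Gli3 to Snai2, and, beside a locus with no gene name, Nek7 to Zeb2, at distances from 0.0677 to 0.151. Among the members, Prrx1 and Zeb2 were the closest pair at 0.219 and Osr1 and Meox1 the farthest apart at 1.95.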

How the data were processed

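The 10 factors and the gene lists were chosen with earlier results of these data known. The submitters' processing notes name cutadapt, TopHat2 2.0.10, HTSeq 0.6.1p1, DESeq2 1.6.3 and the build Rnor_6.0. Annotation release and strand setting are not given in the sources used here. The deposited table holds the authors' raw counts per gene symbol, and the log2 fold changes and adjusted p-values in it are also the authors'. Its 10 further per-library columns were not used. Libraries held 18048944 to 22794744 counts. Counts were filtered with filterByExpr (minimum count 10, minimum total 15) and scaled with TMM factors. edgeR 4.0.16 (R 4.3.3) fitted a robust quasi-likelihood model with 1 coefficient per group to all 10 libraries, with 5 contrasts. DESeq2 1.42.0 and limma-voom (limma 3.58.1) were alternatives, and the method was tested on simulated data. All members are named, and of each other list its counts and up to 4 genes with the smallest adjusted p, plus some fixed symbols. The 2 nearest profiles per member used log2 CPM with a prior count of 2. The count ratios and the flanking genes were picked after their values were seen.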

Additional observations from a re-analysis of the deposited data

How the results depend on the processing

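No factor changed direction past the threshold under any alternative. In both cell-type comparisons all alternatives run kept the counts of called factors within 1.5 times, except where a library was left out. For phenylephrine in fibroblasts, factors called higher numbered 1 with relative log expression factors and 1 without a filter, against 2, and fitting the compared groups alone called 1306 genes, against 531. For phenylephrine in cardiomyocytes, DESeq2 called 950 genes, against 503, and the compared groups alone called 91 genes and 0 factors higher. Without both libraries that stood apart, 3486 genes and 2 factors higher were called. For the difference between cell types, DESeq2 called 790 genes, against 451, with 1 factor higher and 1 lower, limma-voom called 1 factor lower, and without both libraries that stood apart 2657 genes, 1 factor higher and 2 lower were called. Why these counts moved was not tested. With 1 library left out in turn, called genes ran from 112 to 516 for phenylephrine in fibroblasts, with 0 to 2 factors higher and 0 to 1 lower, from 32 to 2371 in cardiomyocytes, with 0 to 2 higher, and from 71 to 1290 for the difference, with 0 to 1 higher and 0 to 2 lower. For the cell types, 8 to 10 factors were higher in serum-free medium, and 0 to 1 lower with phenylephrine. Fits that leave 1 fibroblast library in a group assume that it varies like the other groups.

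After each group's mean was subtracted from log2 levels, same-numbered libraries correlated at -0.0413 in fibroblasts and at -0.224, -0.101 and 0.0198 in cardiomyocytes. Differently numbered libraries correlated at 0.0413 in fibroblasts and between -0.142 and 0.178 in cardiomyocytes. With 2 libraries per fibroblast group, the subtraction makes their deviations mirror each other. The fibroblast value therefore cannot show whether replicate numbers pair libraries. With the replicate number as a block, 225 genes and 0 factors higher were called for phenylephrine in fibroblasts, 197 genes for cardiomyocytes and 198 for the difference. The block ended the phenylephrine calls of Tcf21 (0.81, adjusted p = 0.136) and Twist2 (1.03, adjusted p = 0.0906) in fibroblasts. For the cell-type comparisons the block gave each replicate number 1 effect shared by both cell types, though no label ties these numbers together. In serum-free medium that block ended the cell-type call of Twist1 (0.36, adjusted p = 0.0626), leaving 8 factors higher, against 9. Depth limits Meox1 and Twist2, whose libraries held 28 to 91 and 32 to 164 counts.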

Other observations

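Of 29 other transcription factors of fibroblasts and mesenchyme tested, 24 were higher and 3 lower in fibroblasts than in cardiomyocytes in serum-free medium. In that comparison 31.7% of all genes were higher and 34.5% lower. With phenylephrine in fibroblasts 2 of the 29 rose, against 2.06% of all genes. Tead2 rose by 0.49 (edgeR adjusted p = 0.0103) and Gli2, a Hedgehog effector, by 0.83 (edgeR adjusted p = 0.0429) on the log2 scale. Of 12 epicardial markers 2 were higher and 8 lower in fibroblasts in serum-free medium, with a median log2 difference of -1.80. Msln, mesothelin, averaged 1.20 ± 0.302 CPM in fibroblasts and 57.6 ± 6.37 CPM in cardiomyocytes in serum-free medium, whereas Aldh1a2, a retinoic acid synthase, averaged 78.8 ± 18.2 CPM in fibroblasts and 19.6 ± 1.54 CPM in cardiomyocytes. Aldh1a2 averaged 155 ± 3.54 CPM in fibroblasts with phenylephrine, a log2 change of 0.98 ± 0.192 (edgeR adjusted p = 0.0256), beside Tcf21. Wt1, an epicardial zinc-finger factor, averaged 5.81 ± 0.175 CPM with phenylephrine and 5.81 ± 1.35 CPM in serum-free medium.

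Of the protein-coding genes flanking the members, 16 were tested, and 5 were higher and 7 lower in fibroblasts in serum-free medium, against 31.7% higher and 34.5% lower among all genes. Hdac9, beside Twist1, differed by -3.74 ± 0.282 on the log2 scale where Twist1 differed by 0.43, and Hdac4, beside Twist2, differed by 0.56 ± 0.0981.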
